A study of Danio rerio with 20 samples.

Results

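Described here are 8 maternally loaded zebrafish mRNAs, lipg, pld1a, lipin2, pik3ap1, fam65c, svila, rab11fip4b and ildr1b, among 32105 entries with a name and values. They were chosen by measured values, as mRNAs with some of the largest excesses over control embryos at 5 to 6 hours post fertilization (hpf) after knockdown of both terminal uridylyltransferases TUT4 and TUT7. That excess is therefore a description and carries no test below. In the fit used here they held ranks 1 to 5, 7, 10 and 11 of the excess, among named genes that passed, averaged at least 5 CPM (reads scaled to a common library total) and were higher in every pair. The genes cry1ab (2.74), adob (2.73) and mknk2a (2.68) ranked between them on the log2 scale and were not chosen. Just inside, ildr1b and rab11fip4b stood at 2.67, and just outside, sytl4 and zar1l stood at 2.65. All 8 members passed the filter on low values in every comparison.

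Single-cell embryos of wild-type AB fish received either a control morpholino (ConMO) or translation-blocking morpholinos, antisense oligomers that keep an mRNA from being translated. TUT4MO targets TUT4, TUT7MO targets TUT7, and TUT47MO combines both. Set rs1a held all 4 injections at 2, 4 and 6 hpf with 1 library each, and ConMO and TUT47MO were repeated at 3 and 6 hpf in set rs1b and at 3 and 5 hpf in set rs2. The libraries at 2 and 3 hpf are called early and those at 5 and 6 hpf late, which gives 3 ConMO and 3 TUT47MO libraries in each phase. All are stranded, rRNA-depleted total RNA libraries of whole embryos, 20 in all. How many embryos or clutches went into a library is not in the labels. The p-values therefore measure only how these libraries scatter, which may be technical. In fits within rs1a, with 1 library per injection and hour, that scatter also holds how the injections differ in their change over time. Since the morpholinos block translation, the mRNA level of their targets is no check of the knockdown.

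A zebrafish embryo starts with mRNAs laid down in the egg, and clears many of them as its own genome is switched on. Terminal uridylyltransferases add uridines to the 3′ ends of RNAs, a modification that marks mRNAs with short poly(A) tails for decay. Several of the 8 mRNAs encode enzymes of membrane lipids. Phospholipase D makes phosphatidic acid from phosphatidylcholine, lipins turn phosphatidic acid into diacylglycerol, and phosphoinositide 3-kinases phosphorylate inositol lipids that recruit signalling proteins to membranes.

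The name lipid and phosphoinositide genes covers only some of the 8. By known function lipg, pld1a and lipin2 encode lipid enzymes and pik3ap1 encodes an adaptor of phosphoinositide 3-kinase. The other members encode a supervillin (svila), a Rab11 effector (rab11fip4b), an immunoglobulin-like receptor (ildr1b) and the product of fam65c, which the reference table lists as ripor3. None of the 8 symbols stood on more than 1 entry of the table.

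Depth ran from 11.9 M to 32.8 M estimated reads per library. A pair of very abundant entries took 44.6 to 51.6% of reads in 6 rs1a libraries (each injection at 6 hpf, plus the 4 hpf libraries of TUT7MO and TUT47MO) and 1.17 to 14.4% in the other 14. Levels are given in CPM on 1 scale over the 20 libraries. CPM is not divided by transcript length, so levels are compared between libraries and not between genes. In whole-embryo RNA, fewer cells of a type and less RNA per cell cannot be told apart. Libraries of the sets are named in the order rs1a, rs1b and rs2 throughout.

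**Figure D1:**
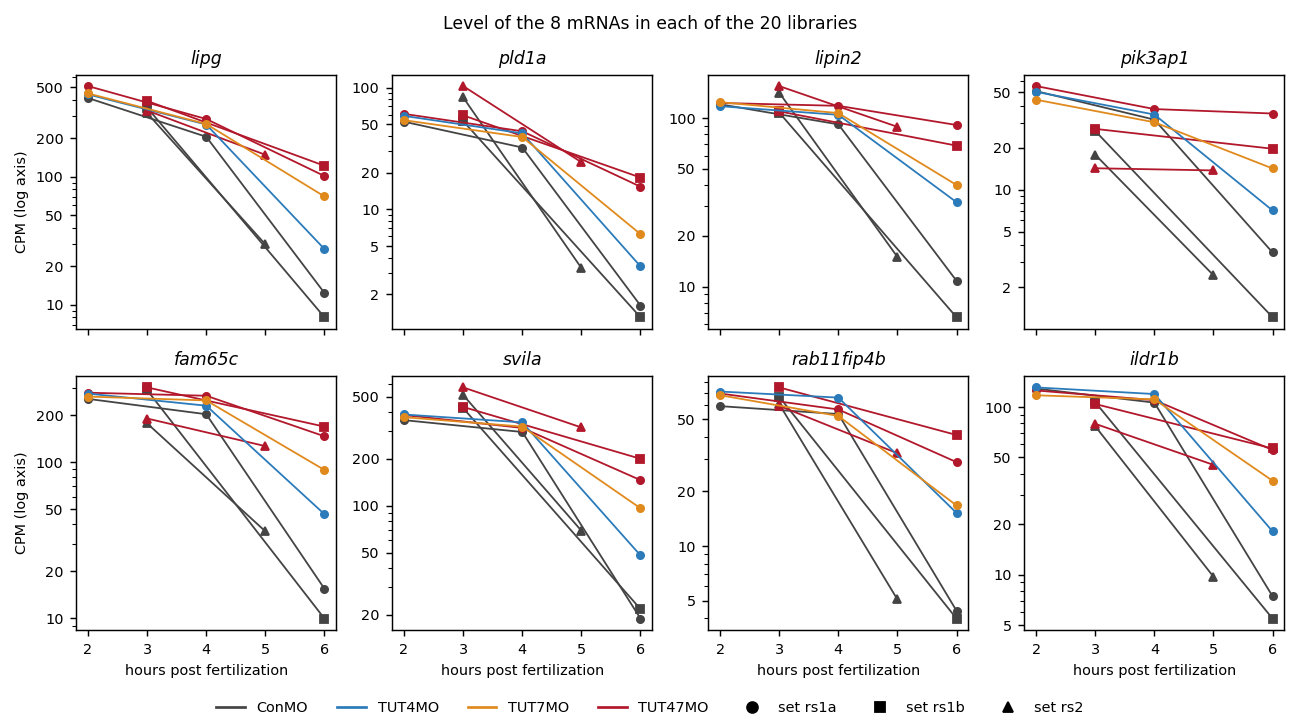
Level of each mRNA in CPM (log axis) against hours post fertilization in all 20 libraries. Colour gives the morpholino, marker shape the set, and lines join libraries of the same set and morpholino. Within a set the curves lie close together at 2 and 3 hpf and spread at 5 and 6 hpf, where ConMO is lowest and TUT47MO highest. Levels also differ between sets.

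Endothelial lipase, encoded by lipg, is in mammals a secreted phospholipase of the lipoprotein lipase family that acts on lipoprotein phospholipids. Early ConMO embryos held lipg at 413, 347.5 and 314.6 CPM, and early TUT47MO embryos at 512, 392 and 329.8 CPM. Late ConMO embryos held 12.3, 7.98 and 29.6 CPM, against 101.4, 122 and 148.6 CPM in late TUT47MO embryos. The late groups did not overlap, and the 5 hpf control of rs2 was the highest of the controls. On the log2(CPM + 1) scale, which understates changes of low genes, late TUT47MO exceeded ConMO by 2.94, 3.78 and 2.29.

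Phospholipase D1 is represented by pld1a. Its early levels were 52.4, 53.0 and 82.9 CPM in ConMO and 60.7, 59.1 and 102.7 CPM in TUT47MO. Late ConMO libraries were at 1.62, 1.30 and 3.30 CPM, while late TUT47MO libraries were at 15.3, 18.2 and 24.4 CPM. Again no late TUT47MO library reached down to a control. The late log2(CPM + 1) differences were 2.64, 3.06 and 2.56, the narrowest spread of the 8 on that scale (SD 0.27, n = 3). At such low control levels the added 1 compresses differences. The plain CPM folds of 9.45, 14.0 and 7.39 were not the narrowest, beside 6.58, 10.3 and 6.38 for rab11fip4b. The lowest control level rested on 15 reads, with an exact Poisson 95% interval of 8.40 to 24.7 reads that covers counting error only.

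Lipin2 (LPIN2 in the reference table) is a phosphatidate phosphatase. Early libraries held 120.8, 107.8 and 141.4 CPM in ConMO and 123, 109.7 and 154.9 CPM in TUT47MO. Late libraries held 10.8, 6.59 and 15.0 CPM in ConMO and 91.0, 68.7 and 88.8 CPM in TUT47MO. In each set the late TUT47MO library was closer to its own early level than to the late control. The late log2 differences were 2.96, 3.20 and 2.49.

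In mammals pik3ap1 encodes an adaptor that couples receptors to phosphoinositide 3-kinase in B cells. Its early level differed more between sets than that of the other members, at 50.8, 26.3 and 17.8 CPM in ConMO and 55.2, 27.2 and 14.2 CPM in TUT47MO. Late ConMO libraries stood at 3.54, 1.21 and 2.43 CPM, and late TUT47MO libraries at 35.1, 19.6 and 13.7 CPM. Within each set the late TUT47MO library was far nearer its early level than the control was. The late log2 differences were 2.99, 3.22 and 2.102, and the lowest control rested on 14 reads (exact Poisson 95% interval 7.65 to 23.5).

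Among the members outside lipid metabolism, rab11fip4b encodes an effector of the recycling-endosome GTPase Rab11. It stood early at 59, 66.3 and 60.5 CPM in ConMO and at 69.2, 74.8 and 59.2 CPM in TUT47MO. Late it stood at 4.41, 3.99 and 5.08 CPM in ConMO and at 29.0, 40.9 and 32.5 CPM in TUT47MO. The late controls of the 3 sets were close to one another. The late log2 differences were 2.47, 3.07 and 2.46.

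Supervillin, encoded by svila, binds actin and myosin II at membranes. Early svila was at 353.6, 422.2 and 512.1 CPM in ConMO and 381.2, 429.6 and 573.2 CPM in TUT47MO. Late it was at 18.9, 21.8 and 69.1 CPM in ConMO and 145.9, 199.9 and 317.5 CPM in TUT47MO. Both late rs2 libraries, taken at 5 hpf, were the highest of their group. The late log2 differences were 2.88, 3.14 and 2.18.

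For fam65c the early levels were 253.7, 288.5 and 176.8 CPM in ConMO and 277.9, 300.4 and 190.0 CPM in TUT47MO. The late levels were 15.5, 9.97 and 36.0 CPM in ConMO and 146.2, 168.6 and 126.5 CPM in TUT47MO. Its late log2 differences of 3.16, 3.95 and 1.78 had the widest spread of the 8 (SD 1.10, n = 3), and the smallest came from the 5 hpf pair.

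In mammals ILDR1 is a protein of tricellular junctions, the points where 3 epithelial cells meet. Its zebrafish gene ildr1b stood early at 128.8, 106.8 and 76.7 CPM in ConMO and 125.5, 104.2 and 79.4 CPM in TUT47MO. Late it stood at 7.42, 5.46 and 9.71 CPM in ConMO and at 55.4, 56.6 and 45.2 CPM in TUT47MO. The late groups did not overlap, with log2 differences of 2.74, 3.16 and 2.11.

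Across the 8 mRNAs, every late TUT47MO library exceeded every late ConMO library, which held for 24.0% of 20122 genes. Of 18075 genes tested late by limma, 34.5% were called higher and 29.5% lower in TUT47MO at a Benjamini-Hochberg adjusted p under 0.05, with a median of 0.09 on the log2 scale. These shares are background only, because this contrast chose the members. The excess was largest in rs1b for each of the 8, and smallest in rs2, whose late libraries were taken at 5 hpf; set and hour cannot be told apart there.

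The question of whether the double knockdown embryos already started with more of these mRNAs was put to the early libraries. The choice of members did not use the early difference between TUT47MO and ConMO. As maternal mRNAs, however, the members had to be present in the early libraries. No member passed (adjusted p = 1 for each, limma over all genes), and neither did any of the 18075 genes (0% called). At an unadjusted p under 0.05 limma counted 104 genes, edgeR called 0 with 198 unadjusted, and DESeq2 called 0 with 150. The member with the highest value was pld1a, at 0.22 ± 0.13 (SE, log2), followed by lipg at 0.18 ± 0.24. At the other end, pik3ap1 stood at −0.05 ± 0.21 and ildr1b at −0.01 ± 0.18. In none of the 8 did all early TUT47MO libraries exceed all early ConMO libraries (background 1.05%). Within pairs, TUT47MO was the higher library in each of 3 early pairs for 5 of 8 members (lipg, pld1a, lipin2, fam65c and svila), by 1.02 to 1.24-fold, which held for 14.0% of 20122 genes. With the deposited scaling all 8 early values were positive, from 0.17 for pik3ap1 to 0.41 for lipg and 0.45 for pld1a (adjusted p 0.916 for each), beside a median of 0.19 for all genes. The early and late pairs shared 1 estimate of the spread in this fit. The pair differences of the members had SDs of 0.037 to 0.23 early and 0.27 to 1.10 late (n = 3). The late pairs thus widened the early standard errors. With the 6 early libraries alone, limma called 1 gene and no member, and 1039 of 15842 genes had an unadjusted p under 0.05. The absence of calls in the shared fit therefore cannot decide whether the members started higher.

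The share of its own early level that each mRNA kept late, in the same set and morpholino, ordered the members within knockdown embryos. In ConMO the mean share ran from 3.18% ± 0.765 (SD, n = 3) for pld1a to 9.98% ± 9.11 for fam65c. The 5 hpf library of rs2 set the last value, with 20.4% against 6.10% and 3.46%, and without rs2 the mean was 4.78%. The ConMO mean of every member dropped without rs2, for example to 2.64% for lipg, 5.25% for svila and 5.44% for ildr1b. For pik3ap1 it dropped from 8.42% to 5.79%, and lipin2 was then the highest at 7.54%. In TUT47MO it ran from 26.6% ± 3.76 for pld1a and 32.0% ± 12.7 for lipg up to 64.7% ± 8.52 for lipin2 and 77.4% ± 17.1 for pik3ap1. In percentage points the members lay close together in ConMO and far apart in TUT47MO, but on the log2 scale the ranges were similar. There the mean late minus early change ran from −4.53 to −3.20 in ConMO and from −1.86 (pld1a) to −0.38 (pik3ap1) in TUT47MO.

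Between those ends, TUT47MO embryos kept 46.7% ± 8.55 of svila, 50.5% ± 7.43 of rab11fip4b, 51.8% ± 6.73 of ildr1b and 58.4% ± 7.27 of fam65c. These neighbours differed by less than the SD of either, as did fam65c and lipin2. For lipin2 and pik3ap1, and for pld1a and lipg, the gap was below the larger SD only. The shares come from the same libraries, so an SD between sets does not measure whether 2 members differ. For example, ildr1b lay below fam65c in each set (44.2, 54.3 and 56.9% against 52.6, 56.1 and 66.6%). The gap between lipg and svila was larger than the SD of either. Without rs2, lipin2 (68.3%) and pik3ap1 (67.8%) stayed highest and pld1a (28.1%) and lipg (25.5%) lowest in TUT47MO. No TUT47MO library held as much late as its own set held early: the nearest was pik3ap1 in rs2 at 96.5%. On the log2 scale the late minus early change in ConMO ran from −4.53 for lipg to −3.20 for pik3ap1, beside 38.1% of 17022 genes called lower in ConMO by limma. These declines lie within the libraries that chose the members and are descriptions.

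**Figure D2:**
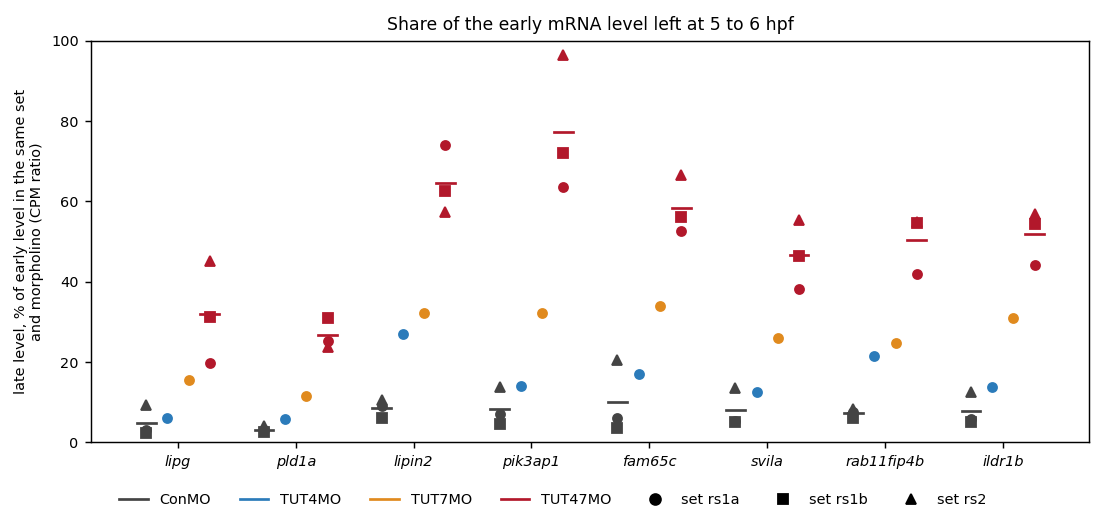
Late level as a percentage of the early level of the same set and morpholino (CPM ratio, linear axis) for each mRNA. Points are sets, with 3 for ConMO and TUT47MO and 1 for TUT4MO and TUT7MO, and short bars are means over 3 sets. The TUT47MO means run from 26.6% (pld1a) to 77.4% (pik3ap1), and all ConMO means lie below 10%.

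The 4 injections of rs1a at 2 and 4 hpf showed when the decline began, in libraries outside the late contrast that chose the members. The members were chosen as maternal mRNAs, so their presence at 2 hpf is given by the choice. All 8 mRNAs fell from 2 to 4 hpf over the 4 morpholinos (limma, 8 libraries, morpholino as a block), against a background of 18.8% of 15764 genes called lower and 20.7% higher. The 4 injections stood in for replicates, so the standard errors hold how their changes differ. A fall is common among maternal mRNAs. Of 12 maternal stage markers, a list of other egg mRNAs, 9 were called lower and 1 higher, with a median of −0.56 beside −0.23 for the 8. The steepest was lipg, which fell by 0.86 ± 0.05 (SE, log2, adjusted p 1.548e-06). Its 4 hpf levels were 205.6 CPM in ConMO, 256.3 in TUT4MO, 258.7 in TUT7MO and 283.1 in TUT47MO.

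Next came pik3ap1, which fell by 0.56 ± 0.05 (adjusted p 2.892e-05), and pld1a, which fell by 0.52 ± 0.06 (adjusted p 8.186e-05). The other members fell by 0.17 to 0.23, and svila was the firmest of them (−0.22 ± 0.05, adjusted p 0.004321). Those small falls were less secure. Without the ConMO libraries 5 of 8 members were still called lower, with adjusted p of 0.0629 for lipin2, 0.105 for fam65c and 0.0718 for ildr1b. Calls were also lost for lipin2 (0.0624) and rab11fip4b (0.0656) without the TUT7MO libraries, for fam65c (0.108) without the TUT4MO libraries and for ildr1b (0.0717) without the TUT47MO libraries. Without the morpholino as a block fam65c was not called (0.079), nor without the filter on low values (0.066). With the deposited scaling, 1443 genes were called higher and 5783 lower, against 3266 and 2962 here. Leaving out the abundant pair of entries changed no member's call.

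At 4 hpf the single TUT47MO library exceeded ConMO 1.38-fold for lipg, 1.36-fold for pld1a, 1.31-fold for fam65c and 1.29-fold for lipin2. For pik3ap1 the ratio was 1.19, and for ildr1b, rab11fip4b and svila it was 1.04 to 1.06. At 2 hpf in rs1a the same ratio already ran from 0.97 (ildr1b) to 1.24 (lipg). The pair of very abundant entries took 44.6% of reads in the 4 hpf TUT47MO library and 14.4% in the 4 hpf ConMO library. There is no replicate of this hour.

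In the rs1a control the steep part of the decline came after 4 hpf for each member, also with only 1 of the enzymes knocked down. In TUT47MO of rs1a pik3ap1 was the exception, with a log2 change of −0.54 from 2 to 4 hpf and −0.10 from 4 to 6 hpf. From 4 to 6 hpf all 8 mRNAs fell in TUT4MO and TUT7MO embryos (limma, 6 libraries of the single knockdowns), against 19.6% of 16832 genes called lower. These different injections stood in for replicates, so the standard errors hold how their changes differ. For lipg the log2 change was −3.19 in TUT4MO and −1.87 in TUT7MO. A fall was common among maternal mRNAs in this fit too, with 9 of 12 maternal stage markers called lower and none higher. The median of these markers was −1.618, beside −1.999 for the 8. Among the 8, the fall was largest for pld1a (−2.88 ± 0.26, adjusted p 0.008883) and lipg (−2.53 ± 0.37, adjusted p 0.01362). It was smallest for pik3ap1 (−1.59 ± 0.32, adjusted p 0.02365) and lipin2 (−1.54 ± 0.14, adjusted p 0.008883). The same members stood at the ends of the late shares in TUT47MO embryos, whose late libraries chose the members. They also stood at the ends of the late minus early log2 change in ConMO. It was −4.53 for lipg, −4.395 for pld1a, −3.45 for lipin2 and −3.20 for pik3ap1, so control embryos shared these ends on that scale. Late controls held pik3ap1 at only 1.21 to 3.54 CPM, where the added 1 compresses changes. Within each end the order on that scale was the reverse of that in the single knockdowns. By plain share of the 4 hpf level left at 6 hpf in rs1a ConMO, the order was that of the single knockdowns. This share was 5.05% for pld1a, 6.01% for lipg, 11.15% for pik3ap1 and 11.81% for lipin2. By share of the early level, pik3ap1 in ConMO lay below rab11fip4b in rs1a (6.96% against 7.47%) and rs1b (4.62% against 6.01%). In rs2 it lay above (13.67% against 8.40%). By mean share kept, fam65c was the highest member in ConMO (9.98%). With the deposited scaling 1290 genes were called higher and 6446 lower, against 2608 and 3301 here.

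At 6 hpf in rs1a the 4 libraries stood in the same order for 8 of 8 members, from ConMO through TUT4MO and TUT7MO to TUT47MO. That order held for 17.8% of 20122 genes. Among 3916 other genes that had at least 5 CPM at 2 hpf and were at least 2-fold lower at 6 hpf in the rs1a control, it held for 56.2%, and among the 514 at least 8-fold lower for 80.0%. The ConMO and TUT47MO libraries are among those that chose the members, so TUT47MO above ConMO is given by the choice. The steps from ConMO to TUT4MO and from TUT7MO to TUT47MO each share a library with that choice. The order of the inner pair, TUT7MO above TUT4MO, shares none, and it held for 55.9% of all genes and 88.6% of the 3916. Its share among the 514 was not computed. For comparison, TUT4MO lay above ConMO for 48.0% and 81.5%, and TUT47MO above TUT7MO for 46.1% and 77.1%.

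Levels in TUT4MO at 6 hpf were 27.2 CPM for lipg, 3.41 for pld1a, 31.7 for lipin2 and 7.08 for pik3ap1. In TUT7MO they were 70.2, 6.26, 40.1 and 14.2 CPM. For fam65c, svila, rab11fip4b and ildr1b TUT4MO held 46.4, 48.0, 15.2 and 18.1 CPM and TUT7MO 89.0, 96.3, 16.7 and 36.3 CPM. TUT7MO exceeded TUT4MO most for lipg (2.58-fold) and least for rab11fip4b (1.10-fold) and lipin2 (1.27-fold).

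Relative to the 6 hpf control, TUT4MO was 2.00 to 3.46-fold higher, TUT7MO 3.70 to 5.75-fold and TUT47MO 6.58 to 9.92-fold. The double knockdown exceeded TUT7MO 1.45-fold for lipg and 2.48-fold for pik3ap1, the ends of the range. For 6 of the 8 the TUT47MO fold was smaller than the product of both single folds, as for fam65c with 9.44 against 17.2. For pld1a (9.45 against 8.08) and pik3ap1 (9.92 against 8.02) it was larger. With 1 library each these ratios have no replicate check. The ConMO and TUT47MO libraries are among those that chose the members, and the same control level enters both single folds. How often the TUT47MO fold is below the product among all genes was not computed, so the count is a description only.

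Averaged over 2, 4 and 6 hpf, TUT7MO and TUT4MO gave no call for any member (limma, adjusted p 0.9395 to 0.9698) or for any of 17051 genes (0% called; 346 at an unadjusted p under 0.05, and with edgeR 0 called and 474 unadjusted). The estimates ran from −0.09 ± 0.39 for rab11fip4b to 0.46 ± 0.47 for lipg (SE, log2). The standard errors are as large as the estimates, so a difference of this size was not detectable here.

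**Figure D3:**
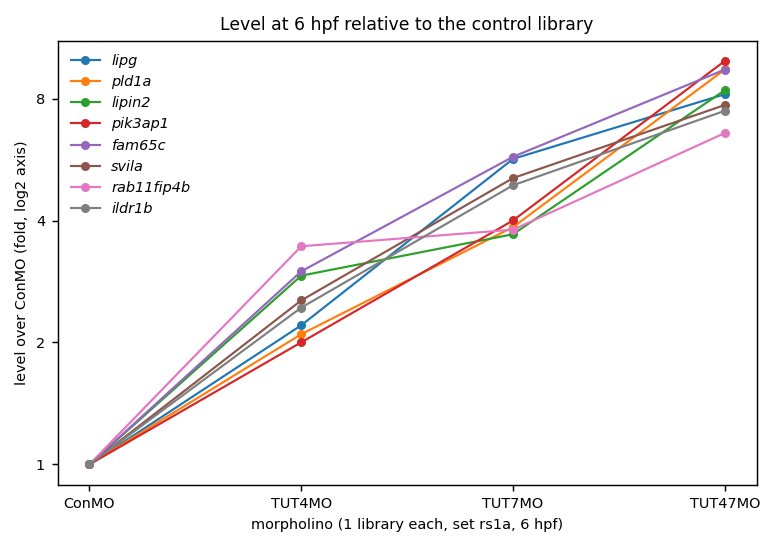
Level at 6 hpf in set rs1a relative to the ConMO library (fold, log2 axis) by morpholino, with 1 library each and 1 line per mRNA. All lines rise from left to right, to between 6.58-fold and 9.92-fold in TUT47MO, and rab11fip4b and lipin2 change least between TUT4MO and TUT7MO.

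Compared with a younger control, the 6 hpf TUT47MO library of rs1a held 111% of the 4 hpf ConMO level of pik3ap1 and 99.1% of that of lipin2. It held 72.2% for fam65c and 47.7 to 54.3% for the other members. Markers of developmental stage and of embryonic layers moved in the same late libraries. Of 12 maternal stage markers 11 were higher in late TUT47MO and none lower, and their summed level was 454.5 to 1034 CPM in late ConMO and 1653 to 2934 CPM in late TUT47MO. Of 15 zygotic stage markers 13 were lower and none higher, with sums of 3211 to 5824 CPM against 1080 to 1266 CPM.

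Markers of the enveloping layer, the outer epithelium of the blastula, were lower for 9 of 10 and higher for none, with late sums of 5523 to 8484 CPM in ConMO and 1094 to 2006 CPM in TUT47MO. Of 12 measured markers of the yolk syncytial layer, which borders the yolk, 10 were lower and 2 higher, with sums of 854 to 1088 CPM against 303.1 to 394 CPM. No enveloping layer or zygotic marker was at 0 in a late library, and at most 1 yolk syncytial entry was. In rs1a at 6 hpf, zygotic markers summed to 5326 CPM in ConMO, 4101 in TUT4MO, 1500 in TUT7MO and 1080 in TUT47MO. Enveloping layer markers summed to 7600, 5897, 1536 and 1094 CPM, and maternal markers to 469, 868.6, 1403 and 1653 CPM, in the same order. TUT4MO thus lay between ConMO and TUT7MO for each of these lists. The part of stage or layer in the levels of the 8 mRNAs was not tested.

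Of 21 close relatives of the members 17 were measured, and 10 rose and 5 fell in late TUT47MO (limma, 58.8% and 29.4% against 34.5% and 29.5% of all genes). The deposited scaling gave 10 higher and 1 lower. None was called early, where the spread shared with the late pairs leaves an absence of calls undecided. In ConMO, 10 of 16 relatives measured were lower late than early (62.5%) and 4 higher (25%), against 38.1% and 35.5% of all genes. The late effect differed from the early one for 11 of the 17, with 9 positive and 2 negative, against 26.1% and 23.4% of all genes. The highest, rab11fip5a, rose by 2.12 ± 0.13 (adjusted p 2.265e-05). None of the 21 was used to choose the members, though these late libraries were.

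Among relatives of the lipid enzymes, the second phospholipase D1 gene pld1b had late levels of 1.93 ± 0.885 CPM in ConMO and 0.952 ± 0.296 CPM with both enzymes knocked down (SD, n = 3). It fell by 0.56 ± 0.15 (adjusted p 0.01128), opposite in sign to pld1a. The related phospholipase D pld2 rose by 0.99 ± 0.12 (adjusted p 0.0001984). Lipoprotein lipase, lpl, was near 0 early and reached 6.79 ± 2.41 CPM in late ConMO, and it fell in TUT47MO by 0.69 ± 0.17 (adjusted p 0.008817). The lipins LPIN3 (0.82 ± 0.15, adjusted p 0.001857) and lpin1 (1.11 ± 0.39, adjusted p 0.0364) rose, less than lipin2 in value.

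Several of these calls were lost with fewer sets. Without rs1a the change was −0.76 for lpl (adjusted p 0.0587), −0.60 for pld1b (0.0534) and 0.71 for LPIN3 (0.0531), close to the values over 3 sets. Without rs1b pld1b stood at −0.44 (0.0933). The sets disagreed for lpin1, with pair differences of 1.83 and 1.85 in rs1a and rs1b and −0.33 in rs2. It was not called without rs1a (0.76, adjusted p 0.295) or without rs1b (0.75, adjusted p 0.271). With the deposited scaling lpl (0.101) and pld1b (0.231) were not called either, and without the pair block they were at 0.159 and 0.0635.

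In the Rab11 effector family the split followed no single direction. The genes rab11fip1a (1.75 ± 0.15), rab11fip1b (1.47 ± 0.23) and rab11fip2 (1.24 ± 0.14) rose with adjusted p of at most 0.0009049. The paralog rab11fip4a fell by 1.40 ± 0.25 (adjusted p 0.001668, or 0.057 without the pair block), the reverse of rab11fip4b. It was at 0.12 CPM in early ConMO and reached 11.7, 14.6 and 1.56 CPM late. The class relative rab11fip3 fell by 0.72 ± 0.23 (adjusted p 0.02783), but not without rs1a (0.25), without rs1b (0.215), with the deposited scaling (0.321) or without the pair block (0.0618).

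Of the other relatives, fam65b rose by 1.31 ± 0.10 (adjusted p 3.713e-05) and lsr, a receptor of the ILDR family, by 1.01 ± 0.16 (adjusted p 0.001015). The supervillin paralog svilb rose by 0.60 ± 0.15 (adjusted p 0.01016, 0.113 without rs1a and 0.0726 without the pair block) from under 1 CPM. The gene fam65a fell by 0.34 ± 0.10 (adjusted p 0.01849), a sign that turned with the deposited scaling (0.02) and a call lost without rs1a (0.155), without rs1b (0.172) and without the pair block (0.233). Neither ildr1a (−0.15 ± 0.14, adjusted p 0.3536) nor vil1 (0.15 ± 0.16, adjusted p 0.4355) passed, and ildr1a did so without rs2 (−0.33, adjusted p 0.0202). The genes lipca, ildr2, VILL and avil were too low to be tested.

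**Figure D4:**
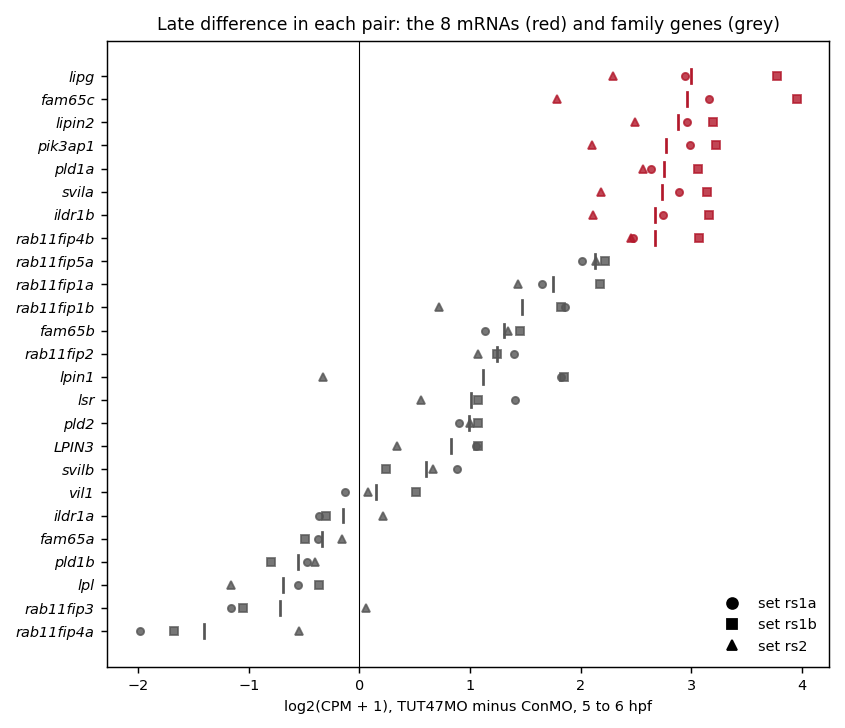
Late TUT47MO minus ConMO difference in log2(CPM + 1) for each pair, with marker shape giving the set and short bars the mean of 3 pairs. The 8 chosen mRNAs (red) have means of 2.67 to 3.00, and the 17 measured family genes (grey) run from −1.40 (rab11fip4a) to 2.12 (rab11fip5a).

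The wider lipid and phosphoinositide pathways held more genes that rose late than genes that fell. The 5 lists cover lipases, phospholipases, phosphatidate and diacylglycerol enzymes, phosphoinositide kinases and phosphoinositide phosphatases. They also hold genes outside these classes, such as lipt1 and lipt2 under lipases and plaa under phospholipases. The receptor adaptor genes irs1, irs2a, irs2b, gab1, gab2, frs2a and frs2b stand under the kinases. A list count is thus not a count of the named class alone. The relatives lpl, lipca, pld1b, pld2, lpin1 and LPIN3 stand in these lists too, so these counts and those of the relatives overlap. Of 181 entries in the 5 lists, 164 were measured. The symbols dgkab, inpp5kb and mtmr3 each stand on more than 1 entry, so the counts are of entries. In late TUT47MO 93 rose (56.7%) and 26 fell (15.9%), against 34.5% and 29.5% of all genes. The list counts below are read against the same shares. Their median was 0.54 beside 0.09 for all genes, and the highest was 2.45. With the deposited scaling, which moved the median of all genes to 0.32, 99 rose and 9 fell, and the list median exceeded that of all genes by 0.49 in place of 0.45. None of the 164 was called early, in the same fit with a shared spread. The same lists also held more genes that fell in controls. Of 159 measured in ConMO, 91 were lower late than early (57.2%) and 27 higher (17.0%), against 38.1% and 35.5% of all genes. The part of this in the late rise of the lists was not tested.

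Phosphoinositide phosphatases had the highest list median (1.01), with 23 of 37 higher and 3 lower. The Lowe syndrome phosphatase gene ocrl rose by 1.94 ± 0.09 (limma, adjusted p 1.5e-05), from 12.4, 11.3 and 18.4 CPM in late ConMO to 50.7, 44.6 and 76.2 CPM. The gene ptenb, for a phosphatase that opposes phosphoinositide 3-kinase, rose by 1.80 ± 0.10, and mtmr8 by 1.68 ± 0.12 and tmem55ba by 1.54 ± 0.11. Of 36 phosphoinositide kinases and subunits 22 were higher and 6 lower, or 18 and 10 with median-of-ratios scaling and 23 and 1 with the deposited scaling. They included pik3c2b (1.43 ± 0.09) and pik3c2a (1.39 ± 0.11), which encode class II phosphoinositide 3-kinases, pikfyve (1.75 ± 0.12) and pip4k2aa (1.41 ± 0.11).

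Lipases followed with 15 of 25 higher and 4 lower (median 0.82). The intracellular phospholipase gene ddhd1a (1.92 ± 0.12), the lipase maturation factor gene lmf2a (1.94 ± 0.14) and the hormone-sensitive lipase gene lipeb (1.82 ± 0.14) rose. The cholesterol acyltransferase gene lcat fell by 1.68 ± 0.14. Enzymes of phosphatidic acid and diacylglycerol gave 19 of 36 higher and 6 lower, among them the lipin-activating phosphatase genes ctdnep1b (2.31 ± 0.16) and ctdnep1a (1.60 ± 0.11), plpp5 (1.77 ± 0.10) and the diacylglycerol kinase gene dgkza (1.76 ± 0.10).

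Phospholipases gave 14 of 30 higher and 7 lower. The genes plcb3 (2.103 ± 0.11), pla2g6 (2.05 ± 0.19) and plcd3a (1.45 ± 0.14) rose. The phospholipase C gene plcd1a, nearly absent early, fell by 4.19 ± 0.41 (adjusted p 8.583e-05), from 131.8, 152.1 and 76.4 CPM in late ConMO to 3.87, 3.44 and 11.0 CPM.

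AKT and TOR effectors, downstream of phosphoinositide 3-kinase, gave 19 of 33 higher and 4 lower, with sgk3 (1.87 ± 0.17), rictora (1.38 ± 0.09) and akt2 (1.14 ± 0.11) higher and gsk3b (−2.02 ± 0.17) lower. Rab11 partners, whose rab11fip genes were also counted as relatives, gave 10 of 25 higher (40%) and 8 lower (32%). That is near the shares of all genes, with a median of 0.22. The deposited scaling gave 10 and 3. Of these, rab11al rose by 1.499 ± 0.13, while rab25a, a Rab11-subfamily GTPase gene of epithelia, fell by 3.05 ± 0.20 from 33.3, 33.0 and 15.7 CPM in late ConMO to 3.11, 1.90 and 1.86 CPM. The 4 genes named from each list are those with the smallest p.

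Over the 20 libraries the members resembled one another, with a Pearson r of 0.909 (pik3ap1) to 0.987 (lipg) between each and the mean of the other 7 on the standardised log2(CPM + 1) scale. The 20 libraries include the late ones that chose the members, which fixes part of this likeness, and they share sets, hours and scaling. Of 9620 other genes, 21 had an r of at least 0.99 with the mean of the members and 811 at least 0.95. The 10 most alike were MCOLN2, bicc1a and sh3gl3b (0.995), osbpl2b (0.994), pdp1, bmi1a, mier1b and cx44.2 (0.993), and tfr1b and ccdc149b (0.992). Their late log2 differences ran from 1.95 (tfr1b) to 2.36 (ccdc149b).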

How the data were processed

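Total RNA was extracted with TRIzol, spiked with ERCC RNA, depleted of rRNA and sequenced as stranded paired-end libraries, per the labels' protocols. STAR 2.5.3a, RSEM and the GRCz10 genome are named, per the submitters' processing notes; their settings are not stated in those notes. The deposited values of set rs1b are estimated counts. The deposited values of rs1a and rs2 are a signal, estimated counts times 1 factor per library of unstated origin. The step between low values gave this factor, and dividing by it made 84.7 to 91.0% of values of at most 20 reads whole (tolerance 0.02). Of 32660 entries 555 (1.7%) without name or values were left out. Because the unit was mixed, limma 3.58.1 on log2(CPM + 1) was the main test, in R 4.3.3, and edgeR 4.0.16 and DESeq2 1.42.0 on rounded reads were alternatives. ERCC values were not used here, so no change is an absolute amount per embryo.

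CPM was scaled by TMM once over the 20 libraries. Each fit kept genes by filterByExpr (minimum count 10), used a mean-variance trend and adjusted p over all genes (Benjamini-Hochberg, 0.05). Early and late TUT47MO effects came from 1 model of 12 libraries with the pair of set and hour as a block. The pairing comes from the set names, and the series text calls the sets independent experiments. That text writes rs2b where the labels write rs1b, which was taken here as the same set. Paired libraries deviated together from their group means (r across genes 0.846 to 0.953 early and 0.431 to 0.56 late), but an hour in common could also give this, since a group mean covers several hours. The rs1a comparisons had morpholino or hour as a block. Chi-square per degree of freedom between libraries of a group was 28.0 to 231, so none is a repeat of another within counting error. Fits were tested on simulated counts with few changed genes, a fixed dispersion and no set or hour effects. Since these data differ in each of these respects, that test does not give the error rate here.

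The members and lists were chosen with earlier results of these data known. Named genes were the members, all same-family genes, up to 4 genes per other list with the smallest late p among those that passed, and the 10 genes most correlated with the members' mean among genes of at least 5 CPM. Of 342 list symbols 297 were matched. The reference name table held 26269 of the 32105 gene IDs, and 737 symbols stand on more than 1 entry. Neither coordinates nor sequences are given, and a GRCz10 reference was not used here. Alternatives were other scalings, filters, pseudocounts (0.1 and 5 CPM), tools and blocks, and sets, hours or morpholinos left out. TMM over the libraries of each fit alone and shares without rs2 were alternatives chosen after seeing the data. The former changed no member's call.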

Additional observations from a re-analysis of the deposited data

Results flagged for a closer look

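Of 17 same-family genes tested, 11 had a TUT47MO effect that differed between late and early libraries (limma interaction, Benjamini-Hochberg adjusted over all genes), where 26.1% of 18075 genes were called positive and 23.4% negative. No member is given here, because the late libraries chose them. The late minus early difference on the log2 scale was 1.97 for rab11fip5a (adjusted p 0.00034), 1.49 for rab11fip1a (0.0012), 1.33 for fam65b (0.000452) and 1.29 for rab11fip2 (0.00139). It was 1.33 for rab11fip1b (0.0116), 0.96 for lsr (0.0105), 0.95 for pld2 (0.00253), 0.79 for LPIN3 (0.0169) and 0.61 for svilb (0.0493). It was negative, at −1.31 for rab11fip4a (0.0174) and −0.58 for pld1b (0.0494).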

How the results depend on the processing

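The direction of the late excess of the 8 mRNAs and of their falls from 2 to 4 and from 4 to 6 hpf was the same under each alternative run. The size of the late excess depended on the pseudocount for low mRNAs, with pld1a at 1.77 with 5 CPM and 3.24 with 0.1 CPM. In the early comparison the deposited scaling called 3 genes and the 6 early libraries alone called 1. The deposited scaling gave 4641 calls for ConMO late minus early, against 12514. For 6 minus 4 hpf, the 4 libraries of those hours alone gave 3313 calls, against 5909. Without the pair block (no replicate block) the late comparison gave 4033 higher and 3907 lower, against 6243 and 5329 with it. The late split was 6631 to 3166 with the deposited scaling and 5343 to 6408 with median-of-ratios scaling. Without rs1a it was 4277 to 3696, without rs1b 4312 to 4082 and without rs2 7178 to 5952. Members called from 2 to 4 hpf ranged from 5 to 7 with 1 morpholino left out.

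Some small estimates changed sign, and the cause was not tested. The deposited scaling raised all 8 early values, turning pik3ap1 to 0.17 and ildr1b to 0.22, and with 1 set left out they ran from −0.13 to 0.083 and from −0.036 to 0.0067. TUT7MO minus TUT4MO with 1 hour left out ran from −0.11 to 0.31 (pld1a), −0.18 to 0.36 (pik3ap1), −0.074 to 0.47 (svila), −0.20 to 0.031 (rab11fip4b) and −0.13 to 0.43 (ildr1b). Late values under the deposited scaling were 0.023 for fam65a and 0.21 for ildr1a, and with 1 set left out vil1 ran from −0.028 to 0.29. At 1.21 to 3.54 CPM in late controls, pld1a and pik3ap1 are the members whose folds depth limits most.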
